A study of Homo sapiens with 6 samples.

Results

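Neighbouring protein-coding genes often lie so close that a single stretch of open chromatin sits at an end of both. The regions described here are such places: stretches of peak summits whose midpoint lay within 1 kb of an annotated end of at least 2 different protein-coding genes. Summits of all libraries on chromosomes 1 to 22 that were under 500 bp apart were chained into 91874 regions (hg38), of which 2112 (2.30%) met this rule, and these are called members below. A further 11439 regions lay at an end of 1 gene and 78323 at none. The rule used position and annotation and no score, so ranks within a list are independent of it. A region exists only where some library had a summit, and its midpoint is set by the summits, so presence and summit position are not wholly independent of the rule. Members touched 3626 of 19122 protein-coding genes (18.96%). Of the members, 2029 lay at 2 genes, 82 at 3 genes and 1 at 4 genes, the region between SLX4IP and MKKS on chromosome 20. Because regions were split where summits were 500 bp or more apart, 473 members shared both genes with another member, and members are therefore not independent of each other.

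The cells were GM12878, a B lymphoblastoid line immortalised by Epstein-Barr virus, a single unmodified line in all groups. In the H3K27ac high and H3K27ac low groups, cells were fixed with paraformaldehyde, stained with an antibody to H3K27ac (acetylated lysine of histone H3, found at active regulatory DNA), sorted by the strength of the stain, and profiled by InTAC-seq. That is ATAC-seq adapted to fixed cells: Tn5 transposase inserts adapters where DNA is open. The live control cells were not sorted, and their DNA was purified without reversal of crosslinks. Each group had 2 libraries of 50000 cells, transposed for 30 min at 37 °C, and the replicates may be technical divisions of 1 sorted pool, so that p-values measure only the spread between libraries.

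Each library was deposited as a list of summits with a score. The lists held 25754 and 46708 summits in the H3K27ac high libraries, 41980 and 51944 in the H3K27ac low libraries, and 70100 and 72476 in the live control. Read depth is unknown, so scores served only to rank regions inside 1 list, and equal numbers of best regions (24326, the whole list of H3K27ac high replicate 1) were used to compare shares between groups. A region absent from a list was not called at that library's depth, which does not show closed chromatin. B cell markers were checked first: all 7 had a called region at an end in some library and CD79B, MS4A1 and PAX5 had one in all 6. The T and NK cell markers CD3E, CD2 and CD8A also had one in all 6 (3 of 8), and no myeloid (of 7) or erythroid (of 6) marker did. In some library, 5 of 8 T and NK cell markers, 1 of 7 myeloid and 1 of 6 erythroid markers had one. The erythroid marker GATA1 lies on chromosome X, outside the regions used, and could not have one.

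Genes on opposite strands whose starts face away from a common stretch of DNA form a head-to-head pair, and the stretch between the starts is called a bidirectional promoter. Such promoters are typically rich in CpG dinucleotides, seldom carry a TATA box and often serve genes used by most cells, among them genes of DNA repair and mitochondrial function. Neighbours can also be arranged head-to-tail, where the stop end of one gene lies by the start of the next, or tail-to-tail, where both stop ends meet. RNA polymerase II is loaded at starts, where nucleosomes are displaced, and ATAC-seq signal in most cells is strongest there.

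The gaps between the starts of 6 head-to-head pairs are printed to show the DNA between paired starts. The gaps of MRPL50/ZNF189 (chr9:101398619-101398850) and SPRING1/RNFT2 (chr12:116738070-116738314) hold members that are among the 12 whose worst rank over the 6 libraries was best (rank 1 is the best score of a list). HSPD1/HSPE1 (chr2:197500275-197500378), SARS2/MRPS12 (chr19:38930764-38930943) and GART/SON (chr21:33542894-33543037) are textbook bidirectional pairs of mitochondrial chaperones, mitochondrial translation genes, and a purine synthesis enzyme with a splicing factor. The member of SARS2/MRPS12 and the SON/GART member at chr21:33542940-33543422 overlap the printed gaps. Another GART/SON member (chr21:33542167-33542262, called in 4 libraries) lies outside the gap, on the GART side. The member of HSPD1/HSPE1 (chr2:197500012-197500164) lies just outside its gap, on the HSPD1 side. COL4A4/COL4A3 (chr2:227164489-227164623), which encodes kidney and lung basement membrane collagen, is shown as a textbook pair whose gap held no summit. Sequences are the plus strand, 5′ to 3′, from RefSeq promoters on GRCh38.p14, from the base after the start of the minus-strand gene to the base before the start of the plus-strand gene. Capitals mark matches, on either strand, to 11 short motifs. ETS factors were searched as CCGGAAG and the factor NF-Y as CCAAT. Zinc finger factors of the SP family were searched as GGGCGG, the E-box as CACGTG, and the TATA box as TATAAA. NRF1 was searched as GCATGCGC, YY1 as AAGATGGCG, the cyclic AMP response element as TGACGTCA, ZBTB33 as CTCGCGAGA, NF-kB as GGGACTTTC, and the interferon response element (ISRE) as GAAACTGAA. No motif holds another, and no 2 matches in these gaps overlapped.
MRPL50/ZNF189: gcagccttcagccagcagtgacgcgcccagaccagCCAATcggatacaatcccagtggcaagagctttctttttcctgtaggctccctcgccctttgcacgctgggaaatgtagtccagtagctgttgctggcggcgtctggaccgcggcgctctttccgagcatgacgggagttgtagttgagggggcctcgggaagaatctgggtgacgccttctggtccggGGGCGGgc
SPRING1/RNFT2: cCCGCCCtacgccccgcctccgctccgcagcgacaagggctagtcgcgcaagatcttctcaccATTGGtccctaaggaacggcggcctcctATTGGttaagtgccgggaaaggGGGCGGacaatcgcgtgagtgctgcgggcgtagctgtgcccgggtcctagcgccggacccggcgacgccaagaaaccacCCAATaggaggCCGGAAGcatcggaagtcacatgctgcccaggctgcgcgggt
HSPD1/HSPE1-MOB4: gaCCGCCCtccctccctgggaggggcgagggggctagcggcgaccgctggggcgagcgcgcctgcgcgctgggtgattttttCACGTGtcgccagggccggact
SARS2/MRPS12: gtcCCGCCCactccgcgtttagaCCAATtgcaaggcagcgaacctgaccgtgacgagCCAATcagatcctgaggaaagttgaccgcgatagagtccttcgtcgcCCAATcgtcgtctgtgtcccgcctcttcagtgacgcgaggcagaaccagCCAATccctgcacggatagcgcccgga
GART/SON: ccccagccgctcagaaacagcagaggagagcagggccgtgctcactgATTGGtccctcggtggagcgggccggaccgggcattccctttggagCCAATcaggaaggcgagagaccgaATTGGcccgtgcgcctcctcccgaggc
COL4A4/COL4A3: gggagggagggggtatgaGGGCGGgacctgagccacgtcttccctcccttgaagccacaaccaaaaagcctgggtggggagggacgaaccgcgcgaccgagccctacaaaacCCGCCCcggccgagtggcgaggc

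The CCAAT motif, the NF-Y letters, was the most frequent in these gaps. It matched 4 times in SARS2/MRPS12, 3 times in SPRING1/RNFT2, 3 times in GART/SON, once in MRPL50/ZNF189, and not in HSPD1/HSPE1 or COL4A4/COL4A3. GC content of the 6 gaps ranged between 60.0% in SARS2/MRPS12 and 74.0% in HSPD1/HSPE1, which also held the E-box match. The 7 ETS letters matched only the gap of SPRING1/RNFT2. These matches are letters in the window, and binding was not measured.

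Promoters of genes at head-to-head members that do not overlap, called head-to-head in this paragraph, had a higher median CpG ratio than the other sets, and overlapping pairs count among the other members. Windows of 300 bases (250 before to 50 after the start) were available for 1324 of 1442 such genes, and for 13186 genes in all. The CpG ratio, observed over expected, had a median of 0.888 (quartiles 0.777 and 0.983) at head-to-head members, 0.824 at other members with a start, 0.846 at regions at the start of 1 gene, 0.771 over all promoters, and 0.314 (quartiles 0.163 and 0.669) at genes with no region within 1 kb. GC content set them apart less, with medians of 65.0%, 65.0%, 65.7%, 62.7% and 54.3% in the same order. The ETS letters stood in 31.3% of promoters at head-to-head members, against 23.9% at other members, 18.2% at regions at the start of 1 gene and 14.7% of all promoters. NRF1 letters stood in 8.53% at head-to-head members and 4.36% of all promoters, YY1 letters in 6.12% and 2.92%, and NF-Y letters in 43.9% and 36.8%. The TATA letters went the other way, with 3.40% at head-to-head members and 10.1% of all promoters. The letters of NF-kB (0.529% and 0.356%) and ISRE (0.529% and 0.538%) were rare in both. Regions at the start of 1 gene lay between these sets, with NRF1 at 5.55%, YY1 at 3.94%, NF-Y at 37.3% and TATA at 6.26%. All promoters include 4121 at genes with no region within 1 kb, where TATA stood in 19.1% and NRF1 in 0.825%. E-box letters were more frequent at other members (13.8%) than at head-to-head members (11.3%). The windows of both genes of a pair can overlap, so these shares count some stretches of DNA more than once, and no test was made.

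Most members were called by every library. In the full lists, 1373 of 2112 members (65.0%, 95% Wilson interval 62.9 to 67.0, counting error only) held a summit of all 6 libraries, against 51.6% of regions at 1 gene and 16.2% of regions at no gene end, and 21.7% of all regions. Among the best 24326 regions of each library, 1282 members (60.7%) were shared by all 6, against 15.8% of all regions. Calls in 1 library only made up 8.19% of members, 14.2% of regions at 1 gene and 35.8% of regions at no gene end. Without H3K27ac high replicate 1, the shortest list, 77.7% of members were called in all the others, and the same share over all regions is not given here.

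Members also ranked higher within each list than regions at 1 gene and at no gene end. Regions at 1 gene include stop ends and genes of unknown strand, and single starts are compared further below. The median percentile rank of members, where 100 is the best score, was 72.3 and 82.0 in the H3K27ac high libraries, 85.9 and 87.0 in the H3K27ac low libraries, and 86.9 and 87.0 in the live control. Regions at 1 gene stood at 67.0 and 76.0 in H3K27ac high, 79.9 and 81.0 in H3K27ac low, and 80.5 and 80.7 in the live control. Members were above them in 6 of 6 libraries, by 6.002 ± 0.366 percentile points (SD, n = 6; exact two-sided sign-flip permutation test p = 0.0313, the smallest that 6 libraries allow; 0.0357 after Benjamini-Hochberg adjustment over 8 such tests). Against regions at no gene end the difference was 40.6 ± 5.49 points (6 of 6 libraries; exact p = 0.0313, adjusted 0.0357). H3K27ac high replicate 1, the shortest list, had the lowest median in each class at a gene end.

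**Figure D1:**
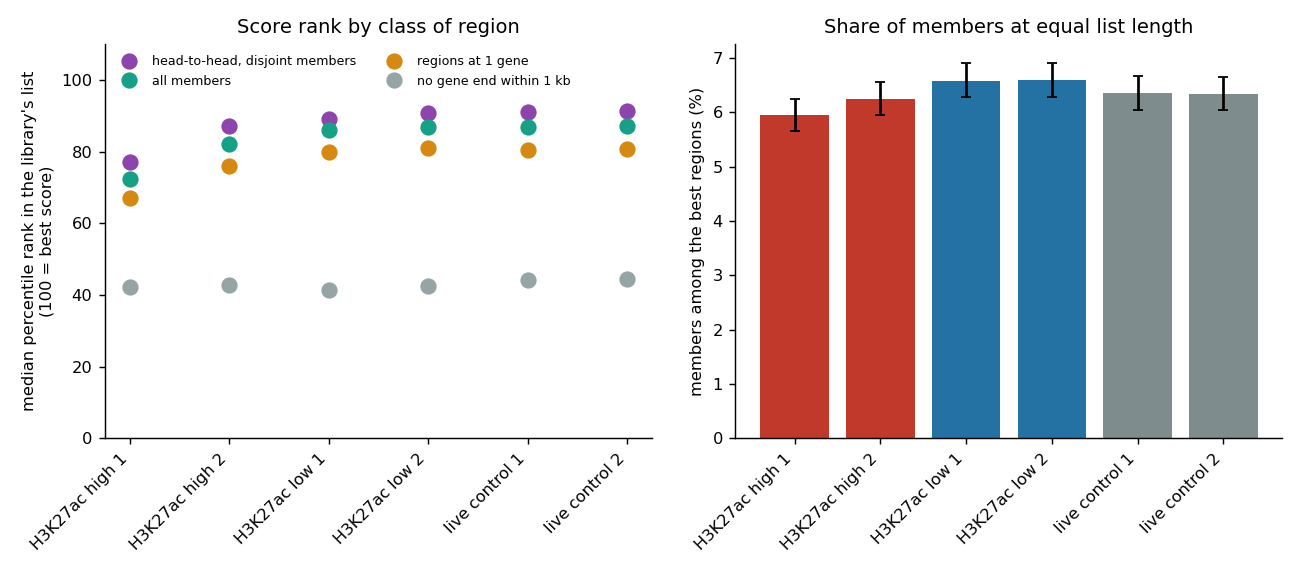
Left, median percentile rank (y axis, 100 is the best score of a list) of 4 classes of region in each of the 6 libraries (x axis). Right, members as a percentage of the best 24326 regions of each library, with 95% Wilson intervals that cover counting error only. Members lay above regions at 1 gene in all 6 libraries, and the share of members was between 5.94% and 6.59%.

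The arrangement of the 2 genes separated the members. Strand was known for both of the nearest genes at 1592 members, and 1082 of these (68.0%) lay at head-to-head starts: 806 in the gap or beside it with the genes apart, and 276 where the genes overlap at their starts. The rest were 104 tandem starts on the same strand, 308 head-to-tail on the same strand, 30 head-to-tail on opposite strands, 58 tail-to-tail and 10 at a shared stop end. Head-to-head members, both kinds together, ranked 11.2 ± 1.64 percentile points above other arrangements (SD, n = 6 libraries; 6 of 6; exact sign-flip p = 0.0313, adjusted 0.0357). Members at head-to-head genes that do not overlap were called in all 6 libraries in 76.9% of cases (620 of 806), those at overlapping ones in 66.7%, tandem starts in 67.3%, head-to-tail members on the same strand in 52.3%, and tail-to-tail members in 8.62% (5 of 58).

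Head-to-head members also stood above regions at a single start. The median percentile of the 806 members was 77.0 and 87.1 in H3K27ac high, 89.1 and 90.8 in H3K27ac low, and 91.0 and 91.4 in the live control. For the 8211 regions at the start of exactly 1 protein-coding gene it was 68.9 and 78.9 in H3K27ac high, 82.1 and 83.8 in H3K27ac low, and 83.7 and 84.4 in the live control. The difference was 7.43 ± 0.576 points (SD, n = 6; 6 of 6 libraries; exact sign-flip p = 0.0313, adjusted 0.0357), and 58.0% of these single starts were called in all 6 libraries. Not all members stood above single starts: head-to-tail members on the same strand stood below them in each library. Their median percentile was 60.3 and 73.5 in H3K27ac high, 78.2 and 80.7 in H3K27ac low, and 80.0 and 81.2 in the live control. Genes other than protein-coding ones were not used, so a single start can still have a non-coding neighbour.

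Annotated pairs were also counted, open or not. The annotation holds 2693 pairs of protein-coding genes of known strand with ends at most 1000 bp apart, and a pair counted as open when a called region lay within 1 kb of both ends. Of 789 head-to-head pairs that do not overlap, 82.9% and 93.3% were open in the H3K27ac high libraries, 92.3% and 93.7% in the H3K27ac low libraries, and 94.4% and 94.4% in the live control. Of 621 tail-to-tail pairs, 1.77% and 4.03% were open in H3K27ac high, 3.86% and 5.15% in H3K27ac low, and 7.41% and 7.09% in the live control. Head-to-head pairs were open more often than tail-to-tail pairs by 86.9 ± 2.97 percentage points (SD, n = 6) and more often than head-to-tail pairs on the same strand by 37.6 ± 4.22 points (6 of 6 libraries each; exact sign-flip p = 0.0313, adjusted 0.0357). In all 6 libraries, 651 head-to-head pairs (82.5%) were open, against 167 of 451 head-to-tail pairs (37.0%) and 9 of 621 tail-to-tail pairs (1.45%).

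**Figure D2:**
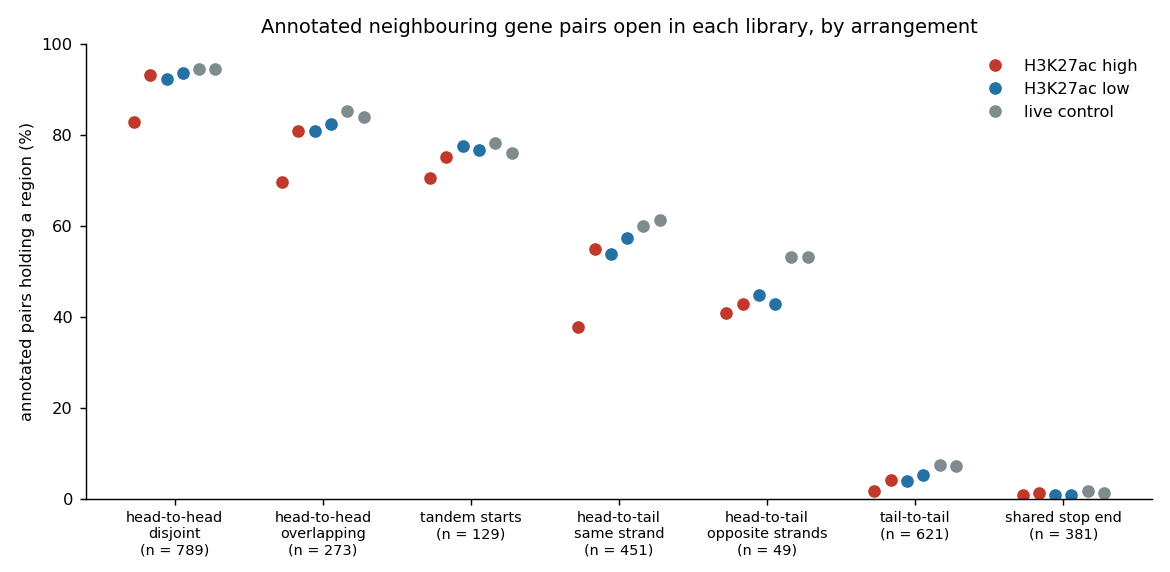
Percentage of annotated gene pairs with a called region within 1 kb of both ends (y axis), by arrangement (x axis, n pairs each), with 1 point per library. Head-to-head pairs lie between 82.9% and 94.4%, tail-to-tail pairs between 1.77% and 7.41%.

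The head-to-head pairs that were open in no library were few, 41 of 789 (5.20%), and several belong to genes of other tissues. Those 41 included COL4A1/COL4A2, which encode basement membrane collagen, DUOX2/DUOXA2 and DUOXA1/DUOX1, the thyroid hydrogen peroxide oxidases with their maturation factors, FOXA1/TTC6 and FOXL2/FOXL2NB with the liver and ovary transcription factors, SMC1B/RIBC2 with a meiotic cohesin subunit, and the olfactory receptors OR11A1/OR2H1. H2AC1/H2BC1, the testis histone pair, was among them as well. Pairs with widely used genes were also there, such as APBA3/MRPL54 (gap 990 bp) and RHBDF1/MPG (647 bp). So were NFKBID/HCST and ENTHD1/GRAP2, which hold genes used in lymphocytes. Where the gap is wide, a region at 1 start can lie more than 1 kb from the other. A pair open in no library can therefore still have a region at a gene end. H3C7/H2BC9 (979 bp) was such a pair, with a region at an end of each gene. BOLA2B/SLX1A has a near-identical copy in the genome, so its call is uncertain. The CpG ratio of promoters in the 41 pairs had a median of 0.777 (74 promoters), against 0.888 at head-to-head members, and the ETS letters stood in 2.70% of them. The pairs named here and the tail-to-tail pairs in the next sentence were chosen after their values were seen. Of the 9 tail-to-tail pairs open in all 6 libraries, H2AC20/H2AC21 and H2AC16/H1-5 lie in histone gene clusters.

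The distance between the 2 starts had a median of 172 bp (quartiles 102 and 282) at the 806 head-to-head members that do not overlap. Members with gaps of 0 to 100 bp were called in all 6 libraries in 65.2% of cases (n = 198, 95% Wilson interval 58.3 to 71.4). The share was 76.6% at 101 to 200 bp (n = 265), 84.3% at 201 to 300 bp (n = 166, interval 78.0 to 89.1), 88.4% at 301 to 500 bp (n = 112) and 77.2% at 501 to 1000 bp (n = 57). The median percentile was highest at 201 to 300 bp in each library, with 85.9 and 93.3 in H3K27ac high, 95.4 and 95.7 in H3K27ac low, and 95.4 and 94.99 in the live control. At 0 to 100 bp it was 67.3 and 76.0 in H3K27ac high, 79.7 and 82.7 in H3K27ac low, and 86.9 and 87.5 in the live control. Of annotated head-to-head pairs, 69.8%, 83.6%, 91.4%, 90.4% and 81.7% were open in all 6 libraries from the shortest to the widest class, so the shortest of these 5 classes was the lowest. The other 8 of the 806 members had gaps of 1001 to 2000 bp, and 5 of them (62.5%) were called in all 6 libraries. The window that counts as a member narrows as the gap widens, since a region must be within 1 kb of both starts.

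The widest gap, 1172 bp at DYNLT4/BTBD19, was called in 5 libraries and not in H3K27ac low replicate 1. The shortest gap, 1 bp, was that of LIPT1, a lipoyltransferase of mitochondria, and TSGA10, whose member ranked 10041 and 7588 in H3K27ac high, 3548 and 4416 in H3K27ac low, and 5365 and 5010 in the live control. BBIP1/SHOC2, with a gap of 4 bp, ranked 153 and 429 in H3K27ac high, 197 and 206 in H3K27ac low, and 1194 and 1217 in the live control. Here the sorted libraries were all ahead of the live ones by rank number, whereas LIPT1/TSGA10 stood lowest in H3K27ac high. VMAC/NDUFA11, with a gap of 1082 bp, called in all 6 libraries, and a gene of respiratory complex I, ranked between 1139 and 2709 in all 6 libraries.

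Summits lay closer to the centre of these gaps in each sorted library than in either live library. The best summit of a member lay inside the gap for 70.2% and 69.4% of members in H3K27ac high, 70.7% and 72.0% in H3K27ac low, and 61.9% and 61.0% in the live control. All 4 sorted libraries exceeded both live libraries: 70.6 ± 1.09% (SD, n = 4) against 61.5 ± 0.652% (SD, n = 2), a difference of 9.11 points (exact two-sided permutation test p = 0.0667, the smallest that 4 against 2 libraries allow; 0.415 after adjustment over 56 group comparisons). These values come from the full lists, which differ in length, and among the best 24326 regions of each library the difference was 5.997 points (exact permutation p = 0.0667). Between H3K27ac high and H3K27ac low the difference was -1.55 points (exact p = 0.3333, the smallest that 2 against 2 allow). Restricted to 491 members called in all 6 libraries with gaps of at least 100 bp, the shares were 83.3% and 86.2% in H3K27ac high, 87.4% and 88.2% in H3K27ac low, and 79.4% and 80.9% in the live control, so the live libraries were lowest with the same members in each library. Median distance from the gap centre was 52 and 44 bp in H3K27ac high, 42 and 43 bp in H3K27ac low, and 60 and 62.5 bp in the live control.

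**Figure D3:**
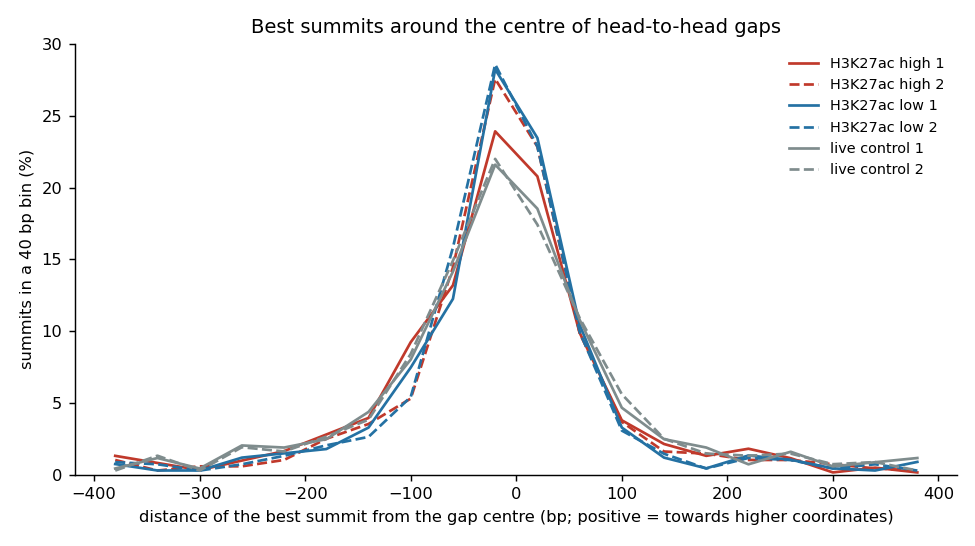
Distance of the best summit from the centre of the gap (x axis, bp) at head-to-head members that do not overlap, as the percentage of each library's summits per 40 bp bin (y axis). All 6 libraries peak at the centre, and the live control curves are lower there and broader.

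**Figure D4:**
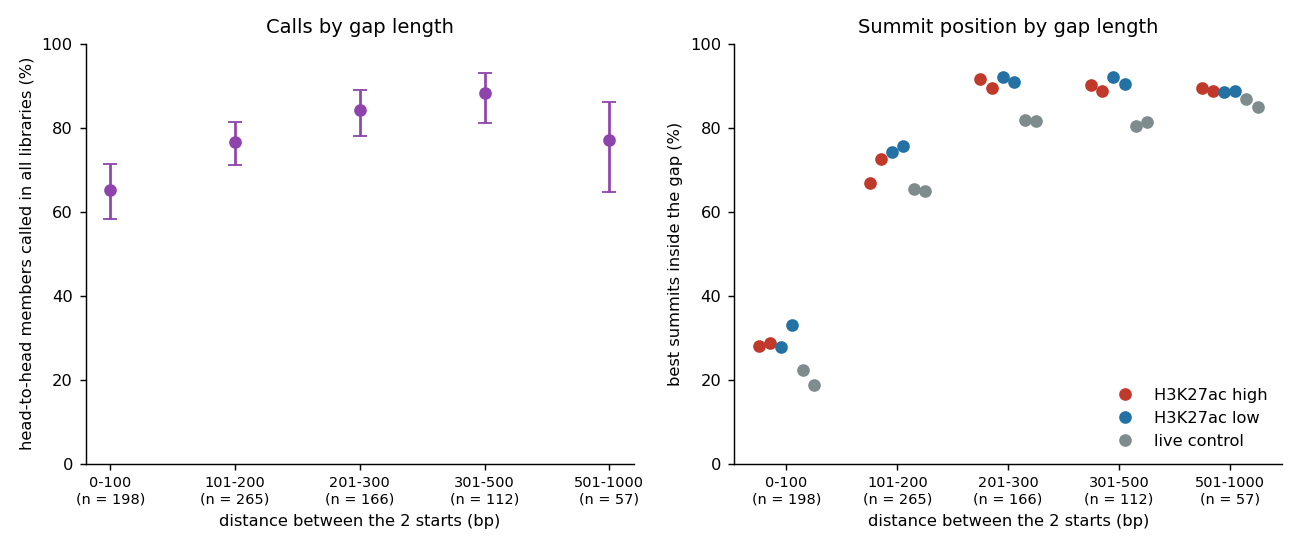
Left, percentage of head-to-head members called in all 6 libraries by distance between the starts, with 95% Wilson intervals. Right, percentage of best summits inside the gap, 1 point per library, where the live control lay below H3K27ac low and H3K27ac high in each class shown (the lowest sorted value at 101 to 200 bp, 66.8%, was 1 library close to the live values of 65.3% and 64.9%).

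The difference had the same sign in each class of gap length up to 1000 bp, and summits differed in position at single starts as well. The sorted minus live difference was 8.95 points at 0 to 100 bp, 9.34 at 201 to 300 bp, 9.47 at 301 to 500 bp and 3.11 at 501 to 1000 bp (exact permutation p = 0.0667 in each, the smallest possible), and 7.23 at 101 to 200 bp (exact permutation p = 0.133). At the start of 1 gene the best summit lay at -61 and -54 bp from the start in H3K27ac high, -54 and -55 bp in H3K27ac low, and -37 and -37 bp in the live control (medians, negative upstream). It lay downstream of the start in 31.9% and 31.8% of regions in H3K27ac high, 32.0% and 30.9% in H3K27ac low, and 39.8% and 40.5% in the live control. The values in this paragraph come from full lists, and the live lists are longer than every sorted list. Regions at single starts numbered 5023 and 6494 in H3K27ac high, 6252 and 6639 in H3K27ac low, and 7268 and 7280 in the live control. Whether list length or read depth, which is unknown, moved these positions was not tested. Sorting, fixation and crosslink reversal separate the same 4 and 2 libraries and cannot be told apart here.

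At head-to-tail members on the same strand with ends at least 200 bp apart, the best summit was nearer the start of the downstream gene than the stop end of the upstream one. This held for 90.1% and 89.9% of such members in H3K27ac high, 92.0% and 91.5% in H3K27ac low, and 88.5% and 90.04% in the live control.

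The number of summits per region was close in the classes. Called members averaged 1.03 ± 0.00340 summits per library, and regions at 1 gene 1.03 ± 0.00201 (SD, n = 6; difference 7.56e-05, positive in 3 of 6 libraries; exact sign-flip p = 0.938). With chaining at 1000 bp instead of 500 bp the difference was 0.0140 (exact p = 0.0313), and with a gene-end window of 500 bp it was -0.00674 (exact p = 0.0313).

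At equal list length the groups did not differ beyond what the test can show. Members made up 5.94% and 6.25% of the best regions in the H3K27ac high libraries, 6.58% and 6.59% in the H3K27ac low libraries, and 6.35% and 6.34% in the live control. The difference was -0.489 points for H3K27ac high minus H3K27ac low, -0.245 for H3K27ac high minus the live control and 0.245 for H3K27ac low minus the live control (exact p = 0.3333 each, the smallest possible). In the full lists the sign between H3K27ac high and H3K27ac low turned, to 0.932 points, where list length differs as well. Among the best 12163 regions, members were 8.56% and 9.23% in H3K27ac high, 10.8% and 10.5% in H3K27ac low, and 9.75% and 9.50% in the live control. Regions at 1 gene followed the same order, with 25.7% and 27.2% of the best 24326 in H3K27ac high, 28.5% and 28.4% in H3K27ac low, and 28.0% and 27.8% in the live control. As a share of all regions at any gene end, members were 18.8% and 18.7% in H3K27ac high, 18.8% and 18.8% in H3K27ac low, and 18.5% and 18.5% in the live control.

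Few members were among the best regions of 1 sort gate alone. Members in the best regions of both H3K27ac high libraries and neither H3K27ac low library numbered 4 (0.189%), against 0.972% of all regions. Those in both H3K27ac low and neither H3K27ac high library numbered 51 (2.41%), against 1.32% of all regions and 2.14% of regions at 1 gene, so the share of members was near that of regions at 1 gene. These counts rest on single libraries: without H3K27ac high replicate 1 they were 19 and 84, and without H3K27ac high replicate 2 they were 48 and 182. Without H3K27ac low replicate 2 they were 19 and 88, and without H3K27ac low replicate 1 there were 9 of H3K27ac high, each over a looser rule. The share of all regions under these looser rules is not given here. The counts therefore show dependence on single libraries and not a trait of members. Of the 51, 49 were present further down the full list of an H3K27ac high library, and 21 were among the best regions of both live libraries. HPS4/SRRD (chr22:26483717-26483811), the first a gene of lysosome-related organelles, ranked 36139 in H3K27ac high replicate 2 and was not called in replicate 1, against 9041 and 9159 in H3K27ac low, and 17827 and 29632 in the live control. GAA, the lysosomal acid glucosidase, and CCDC40, a cilia gene, had a member at 33223 in H3K27ac high replicate 2 and not called in replicate 1, against 10844 and 12608 in H3K27ac low, and 24337 and 28098 in the live control. SURF1/SURF2, a textbook pair with a cytochrome oxidase assembly gene, was called in neither H3K27ac high library and ranked 20238 and 18057 in H3K27ac low and 17029 and 23807 in the live control. The 4 members of H3K27ac high were SUGP2/ARMC6, FAM217B/SYCP2, MEGF10/LOC105379198 and MGAT2/DNAAF2. FAM217B/SYCP2, with a synaptonemal complex gene, ranked 11001 and 24210 in H3K27ac high, 26548 and 30823 in H3K27ac low, and 32951 and 30984 in the live control.

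Members in the best regions of all 4 sorted and neither live library numbered 12 (0.568%), against 0.577% of all regions, and those of both live and no sorted library 10 (0.473%), against 0.849%. Leaving out live control replicate 1 gave 30 and 21 such members, and leaving out live control replicate 2 gave 28 and 23. Without H3K27ac high replicate 1 there were 23 of the sorted libraries, and without H3K27ac low replicate 1 there were 17 of the live ones. The share of all regions with a library left out is not given here. SERF2/ELL3 ranked 15128 and 14382 in H3K27ac high and 7033 and 9211 in H3K27ac low, and was called in neither live library. CD68/EIF4A1, a macrophage lysosomal protein next to a translation initiation helicase, was not called in H3K27ac high replicate 1, ranked 29616 in H3K27ac high replicate 2, 29084 and 25368 in H3K27ac low, and 18866 and 17340 in the live control.

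The members with the best worst rank stood near the top of every list. KCTD9/CDCA2 ranked 20 and 37 in H3K27ac high, 34 and 50 in H3K27ac low, and 52 and 5 in the live control. KBTBD3/AASDHPPT, the second gene being the phosphopantetheinyl transferase that activates fatty acid synthase, ranked 51 and 88 in H3K27ac high, 64 and 81 in H3K27ac low, and 119 and 66 in the live control. ZNF189/MRPL50, with a mitochondrial ribosomal protein and the first gap printed above, ranked 52 and 40 in H3K27ac high, 45 and 43 in H3K27ac low, and 141 and 39 in the live control. All 12 such members stood between 3 and 250 in every library. ORMDL2/SARNP, a sphingolipid regulator with an mRNA export gene, ranked 165 and 35 in H3K27ac high, 7 and 46 in H3K27ac low, and 3 and 11 in the live control.

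The textbook pairs were mostly at members, 37 of 42 genes on a list of known bidirectional pairs, 30 of them with a member called in all 6 libraries, though that list was chosen for this arrangement. HSPD1/HSPE1 ranked 162 and 278 in H3K27ac high, 524 and 443 in H3K27ac low, and 1336 and 2670 in the live control (the annotation names its second gene HSPE1-MOB4). ATM/NPAT (chr11:108222827-108222898), the DNA damage kinase with a histone gene activator, ranked 321 and 450 in H3K27ac high, 246 and 405 in H3K27ac low, and 795 and 1040 in the live control. In both pairs the sorted libraries stood ahead of the live ones by rank number, in lists of unequal length. Relative to list length, ATM/NPAT stood further up in live control replicate 1 than in H3K27ac high replicate 1. SARS2/MRPS12 ranked 2982 and 2936 in H3K27ac high, 892 and 2136 in H3K27ac low, and 1290 and 1774 in the live control, and SON/GART ranked 2208 and 1261 in H3K27ac high, 952 and 919 in H3K27ac low, and 1147 and 1240 in the live control. COL4A4/COL4A3 had 2 weak members beside the printed gap, 1 called in 3 libraries with ranks between 39577 and 45925 and the other in 2, and neither reached the gap. PPAT, PAICS, COL4A1, COL4A2 and ERCC1 had no member under this rule, which uses the outermost annotated limits of each gene.

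Of all protein-coding genes, 64.6% had a called region within 1 kb of an end. In each gene list this share was 90% or more, except for genes of other tissues (25%). Gene lists differed in how many of their genes lay at a member, against 18.96% of all protein-coding genes, a base that includes the genes with no region. Replication-dependent histone genes, which package new DNA, did so for 32 of 54 (59.3%), all 32 with a member called in all 6 libraries, among them H2AC11/H2BC11, which ranked 5655 and 8416 in H3K27ac high, 3575 and 5555 in H3K27ac low, and 5601 and 7432 in the live control. DNA repair genes did so for 21 of 40 (52.5%), 20 with a member called in all 6, MRE11 being the exception, and DNA replication genes for 16 of 41 (39.0%), 14 called in all 6. XRCC4/TMEM167A, with a gene of end joining, ranked 72 and 316 in H3K27ac high, 81 and 229 in H3K27ac low, and 50 and 19 in the live control. PCNA/CDS2 (chr20:5126630-5126766), with the polymerase clamp, ranked 798 and 569 in H3K27ac high, 198 and 590 in H3K27ac low, and 2548 and 1862 in the live control. By rank number the live control stood behind the sorted libraries. Relative to list length, live control replicate 2 stood ahead of H3K27ac high replicate 1. Mitochondrial ribosome and import genes counted 18 of 47 (38.3%, 13 called in all 6), aminoacyl-tRNA synthetases 11 of 29 (37.9%, 10), proteasome subunits 9 of 34 (26.5%, 8), antigen processing genes 7 of 27 (25.9%, 6) and cytosolic ribosomal proteins 8 of 33 (24.2%, 6). PSMA2/MRPL32, a proteasome subunit with a mitochondrial ribosomal protein, ranked between 543 and 1381 in all 6 libraries.

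B cell identity genes lay at members at a share near that of all genes, although 92.3% of them had a region at an end against 64.6% of all genes. The members at B cell identity genes touched only 4 of these genes, and none of these members was called in every library. Interferon response genes counted 7 of 30 (23.3%), all 7 called in all 6 libraries, including STAT2/APOF, which ranked 485 and 651 in H3K27ac high, 609 and 134 in H3K27ac low, and 254 and 96 in the live control. Genes of NF-kB and lymphoblastoid activation counted 4 of 25 (16%), 2 called in all 6, and B cell identity genes 4 of 26 (15.4%), CD22, CD37, SPIB and TNFRSF13C, none called in all 6. Of the KRAB zinc finger genes, transcriptional repressors mostly in clusters on chromosome 19, 1 of 41 lay at a member, and of genes of other tissues with close partners 4 of 40, none called in all 6. Over all genes at members, 75.3% (2732 of 3626) had one called in all 6 libraries. The lists were chosen with earlier results known, so these counts are descriptions.

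**Figure D5:**
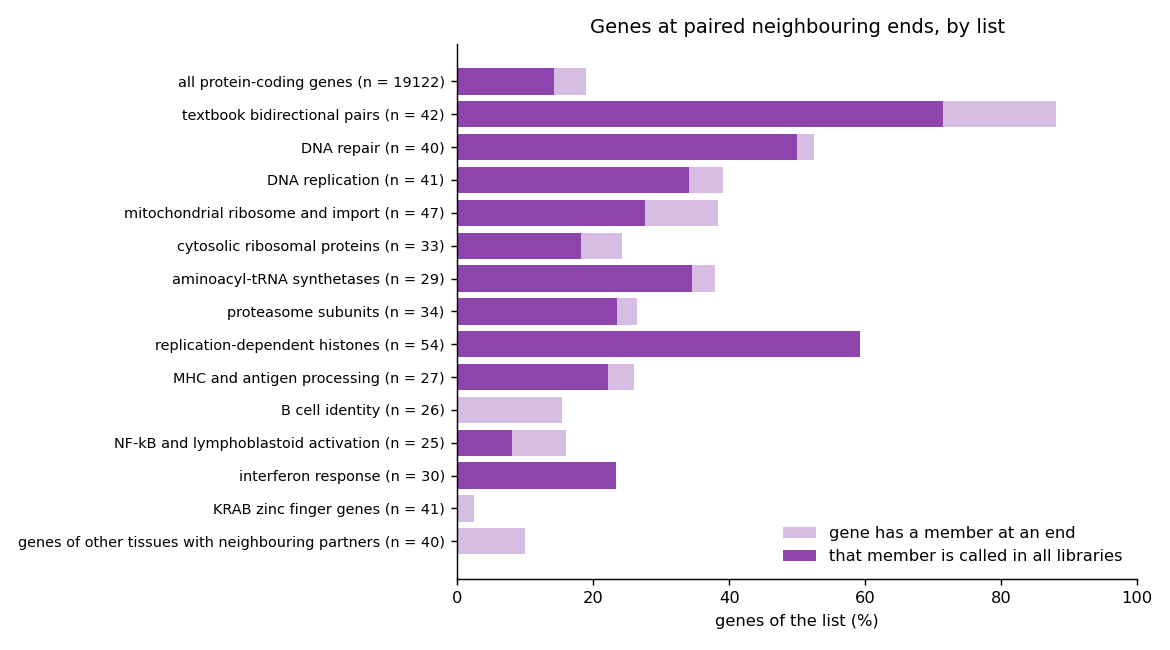
Percentage of each gene list (y axis, n genes) with a member at an end (light bars) and with a member called in all 6 libraries (dark bars). Histone and DNA repair genes lie highest after the textbook pairs. B cell identity genes, KRAB zinc finger genes and genes of other tissues have no member called in all 6.

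Members were unevenly spread over chromosomes, as were genes. They made up 6.42% of regions on chromosome 19, 5.38% on chromosome 17 and 4.41% on chromosome 16, and least on chromosome 18 (0.717%) and chromosome 4 (0.882%). Genes at a member were 25.1% of protein-coding genes on both chromosomes 16 and 17, and 11.5% on chromosome 18. At the limit of the rule, with the second gene end at 900 to 1000 bp, 40% of 155 regions were called in all 6 libraries, against 32.6% of 135 regions at 1000 to 1100 bp and 43.4% of 136 regions at 1100 to 1200 bp. These values are given with no test.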

How the data were processed

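Chromatin accessibility was given as 6 lists of single-base summits, each with a score that was read as the -log10 of a p-value or q-value from the authors' caller, deposited 1 list per library. Per the submitters' processing notes, bcl2fastq, FastQC, Bowtie2, Picard and MACS2 were used, with builds hg38 and hg19; versions and settings: not given in the sources used here. The coordinates are on hg38. The scores grow with depth, which is unknown, so they were ranked within a list only, and ties were broken by a seeded draw.

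Summits on chromosomes 1 to 22 were chained at 500 bp. Gene ends came from RefSeq genes of GRCh38.p14 (19122 protein-coding genes), and strand from RefSeq promoters of the same assembly, which gave it for 15100 (79.0%), so that 520 members had no known arrangement. Groups were compared with exact two-sided permutation tests over libraries (2 against 2 cannot go below p = 0.3333, 4 against 2 not below 0.0667), and classes of region with exact sign-flip tests over the 6 libraries, with Benjamini-Hochberg adjustment. Shares of regions carry 95% Wilson intervals. The member share and the rank difference were tested on simulated lists with and without a known shift. The members named in the text were the 12 with the best worst rank over the libraries, those of textbook pairs, of each gene list, of each group-only set and at the extremes of gap length. Python 3.11.15, numpy 2.4.6, pandas 2.3.3, scipy 1.17.1 and matplotlib 3.10.9 were used. The members and lists were chosen with earlier results of these data known. Annotated pairs, single starts, the restricted summit sets, the finer gap classes and the gene table without readthrough and LOC genes were chosen after seeing the data. With the wider gap classes of the design, 0 to 200, 200 to 500, 500 to 1000 and 1000 to 2000 bp, the head-to-head shares called in all 6 libraries were 71.7%, 85.8%, 77.2% and 62.5%. Alternatives changed the list length, chaining distance, gene-end window and replicate block, and left out each library in turn.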

Additional observations from a re-analysis of the deposited data

How the results depend on the processing

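The 3 rank differences between classes of region and the sorted minus live difference in summit position over all 806 members kept their sign under each alternative run for them (list length, chaining, window, gene table and each library left out), with ranges of 5.12 to 6.33 points for members minus regions at 1 gene, 35.4 to 42.9 against regions at no gene end, 9.41 to 13.6 for head-to-head minus other members, and 5.997 to 10.8 for the summit position. Leaving out 1 library gave 5.92 to 6.14, 39.7 to 42.6 and 10.7 to 11.6 points for the 3 rank differences, each at exact p = 0.0625, the smallest that 5 libraries allow. For the 4 group-only counts it gave 4 to 48 high-only, 51 to 182 low-only, 14 to 30 sorted-only and 13 to 23 live-only members, for the share in all libraries 65.0% to 77.7%, and for summits per region differences of -0.000982 to 0.000780. With the best 12163 regions there were 96 low-only, 31 sorted-only and 28 live-only members, and with full lists 26, 1 and 66. Full lists also turned H3K27ac high minus H3K27ac low to 0.932 points (exact p = 0.667) and H3K27ac high minus live to 2.12 (exact p = 0.3333). Among the best regions only, 60.7% of members were shared by all 6. Chaining at 250 bp gave 15 high-only and 19 sorted-only members and 55.7% in all 6, and at 1000 bp 6 live-only members, 74.4% in all 6 and 0.0140 summits per region. A window of 500 bp gave 1 high-only, 29 low-only and 5 live-only members, 76.5% in all 6 and -0.00674 summits per region, and 2500 bp gave 11, 83, 26 and 16 group-only members (high, low, sorted and live), 53.1% in all 6 and 0.0153 points for summit position in H3K27ac high minus H3K27ac low. Without readthrough and LOC genes, an alternative chosen after seeing the data, the summit difference was -0.00122. With the replicate number as a block, the differences in member share were -0.489 for H3K27ac high minus H3K27ac low, -0.245 for H3K27ac high minus live and 0.245 for H3K27ac low minus live (exact p = 0.5 each, the smallest that 2 pairs allow). Same-numbered libraries did not deviate together (correlations of -0.0430 to 0.0799 over members called in all 6), so the numbers were not used as pairs. With H3K27ac high replicate 1 left out and the list length raised to 39714 regions, H3K27ac high minus H3K27ac low was -0.0428 points. The causes of these moves were not tested. The group-only counts and the shares in all libraries are given here for members alone. Whether members moved more than all regions was not tested. Read depth is unknown, which limits every statement on absence from a list, and 2 libraries a group limit every test between groups.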
